A study of Mus musculus with 6 samples.

Results

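Activin and transforming growth factor beta (TGF-beta) signalling was examined through 10 genes in peritoneal macrophages after lipopolysaccharide (LPS), and all 10 had a probe set among the 19938 genes that the arrays could name. The genes were fixed as a list: the ligand genes Inhba and Tgfb1, the ligand trap Fst, the receptor genes Acvr1, Acvr2a, Tgfbr1 and Tgfbr2, the signal transducer Smad3, its inhibitor Smad7 and the TGF-beta-induced matrix gene Tgfbi. Each was read from the probe set whose platform annotation names it and no other gene, and each had 1 such probe set. Results of these arrays were known when the list was drawn up.

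Affymetrix arrays were hybridised with RNA from adherent peritoneal cells of C57BL/6 mice aged 8 weeks, given thioglycolate broth (2 ml, an irritant that recruits monocytes to the cavity) 72 h before harvest. The cells attached for 4 h, rested for 24 h and then received LPS, a component of bacterial walls that Toll-like receptors detect, at 100 ng/ml for 6 h. The arrays labelled KLF2∆/∆ (n = 3) came from mice that carry Cre recombinase in both copies of the lysozyme gene Lyz2 and a floxed Klf2 gene, and the LysMCre/Cre arrays (n = 3) from mice with the Cre alone. All 6 arrays therefore share the Cre, the thioglycolate and the LPS; no untreated cells were analysed here, and the comparison is of genotypes after LPS and not of the response to it. LysM-driven Cre acts in myeloid cells, so any other adherent cell would keep Klf2. No label describes a sort of the cells, and none ties an array to 1 mouse, so the p-values speak only of the spread from array to array, which may be technical.

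The deposited values are log2 intensities after robust multi-array averaging (RMA), whose medians lay between 7.85 and 7.90 on the 6 arrays. Each change is the difference in mean log2 intensity, arrays labelled KLF2∆/∆ less LysMCre/Cre arrays, and is given with limma's Benjamini-Hochberg adjusted p over 12649 tested genes and a threshold of 0.05. Klf2 itself, a zinc finger transcription factor, went against the label: it read 9.10, 9.25 and 9.21 in the arrays labelled KLF2∆/∆, against 8.88, 8.97 and 8.94 in LysMCre/Cre arrays (change 0.26 ± 0.064 SE, adjusted p = 0.00398, exact permutation p = 0.1). The sources used here do not say whether its probes lie in the deleted part, so every direction below goes by the labels of the arrays. The macrophage markers Spi1 and C1qb averaged 13.21 and 13.21 in the arrays labelled KLF2∆/∆ and 12.98 and 12.98 in LysMCre/Cre arrays, well above the low-intensity filter of 7.49. Of 13 tested general macrophage markers, 7 were called higher, 2 lower and 4 not called, as given below.

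Activins are dimers of inhibin beta chains, and TGF-betas are related dimers that are stored in latent complexes. Either kind of ligand binds a type II receptor, which phosphorylates a type I receptor, which in turn phosphorylates Smad2 and Smad3. Activated Smads join Smad4 and act on transcription in the nucleus, and their targets include the inhibitory Smad7, which closes a feedback loop. Macrophages are known to make activin A after Toll-like receptor stimulation, and TGF-beta is known for restraining macrophage activation and for inducing matrix genes.

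Of the 10 genes, all of which passed the low-intensity filter, 4 fell (Fst, Inhba, Smad3 and Smad7) and 2 rose (Tgfbi and Tgfbr1) in the arrays labelled KLF2∆/∆, while Tgfb1, Tgfbr2, Acvr1 and Acvr2a did not pass. Over all tested genes 29.8% were called, 13.6% higher and 16.2% lower. The share called was larger among brighter genes. With a filter at the 60th percentile of mean intensity, which Acvr2a did not pass, 1690 of 8483 tested genes were called higher and 1649 lower. The values of the groups did not overlap in 7 of the 10 genes, against 40.8% of all tested genes. A change of at least 0.5 in size was measured for Fst, Tgfbi and Inhba, against 4.43% of all tested genes. The median size of change was 0.29 over the 10 genes and 0.099 over all tested genes, and the median signed change was -0.099 over the 10 genes and 0.0019 over all tested genes.

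**Figure D1:**
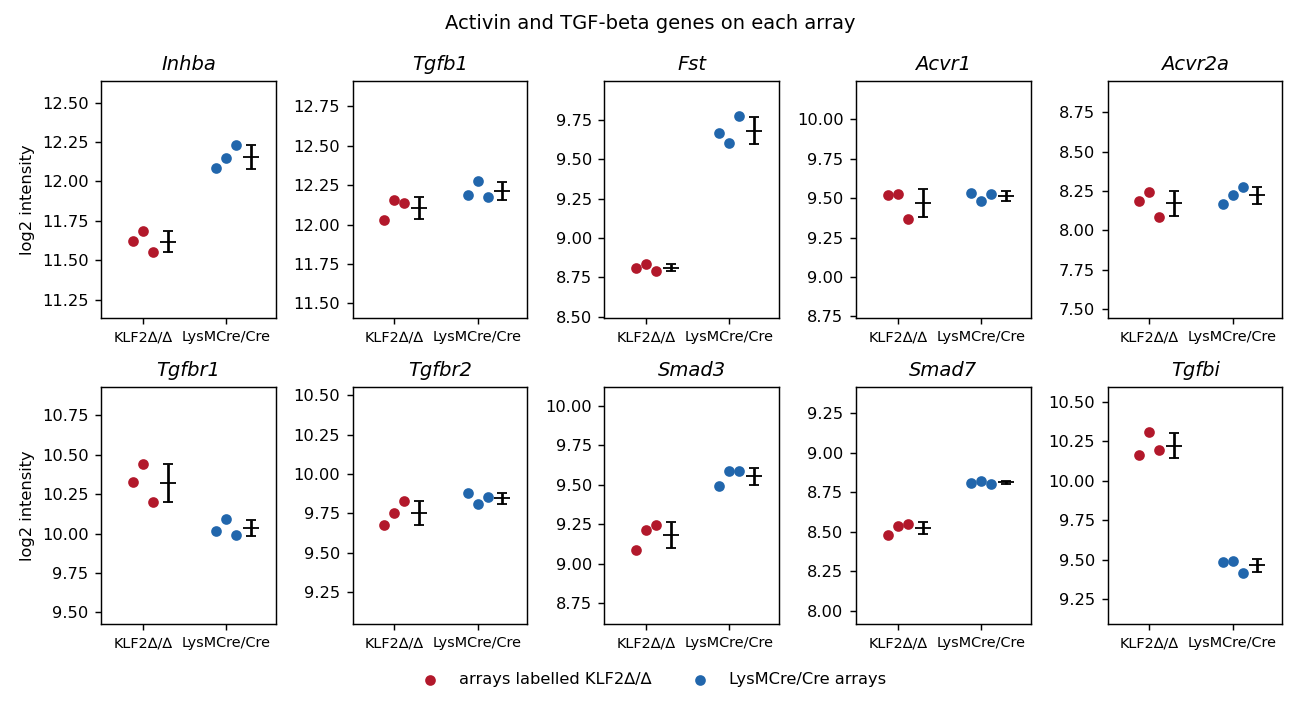
Log2 intensity of each of the 10 genes on each array (points), with the mean and SD of each group beside them; the vertical axes differ in position but all span the same range, and levels are not comparable between genes. The 3 arrays labelled KLF2∆/∆ lie wholly below the LysMCre/Cre arrays for Inhba, Fst, Smad3, Smad7 and, by a gap of 0.021, Tgfb1, and wholly above them for Tgfbr1 and Tgfbi.

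Among the ligand genes, Inhba encodes the inhibin beta A chain, which pairs with itself to form activin A. Its log2 intensities were 11.62, 11.68 and 11.55 in the arrays labelled KLF2∆/∆, against 12.08, 12.15 and 12.23 in LysMCre/Cre arrays. The groups were separated by a gap of 0.40, and every array labelled KLF2∆/∆ was low. The change was -0.54 ± 0.047 (SE), a 1.45-fold lower signal, with adjusted p = 2.29e-08. Of all tested genes, 3.72% changed by more in size. The exact two-sided permutation p was 0.1, which is the smallest that 3 arrays against 3 allow and which therefore cannot reach 0.05 for any gene here.

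Tgfb1 encodes the TGF-beta ligand that immune cells chiefly make. It read 12.03, 12.16 and 12.14 in the arrays labelled KLF2∆/∆, against 12.19, 12.28 and 12.18 in LysMCre/Cre arrays. The groups stood apart by only 0.021, less than the SD within either group (0.070 and 0.055). The change of -0.11 (95% interval -0.20 to -0.015) did not pass after adjustment (adjusted p = 0.0759). It passed without KLF2∆/∆ replicate 3 (-0.12, adjusted p = 0.0450) and with array weights (-0.12, adjusted p = 0.0370), and the 16 alternatives spanned adjusted p values of 0.0370 to 0.343.

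Fst encodes follistatin, a secreted protein that binds activin and keeps it from its receptors. Its values were 8.81, 8.83 and 8.79 in the arrays labelled KLF2∆/∆, against 9.67, 9.60 and 9.77 in LysMCre/Cre arrays. This was the widest gap between groups among the 10 genes, 0.77, with an SD of 0.021 in the arrays labelled KLF2∆/∆ and 0.086 in the others. Fst was 1.83-fold lower (-0.87 ± 0.062 SE, adjusted p = 1.48e-09), and 108 of the tested genes fell by more. The signals of the ligand subunit and its trap were thus lower on the same arrays, though by unequal amounts on the log2 scale. Whether their transcripts changed by unequal amounts was not tested. Set to the LysMCre/Cre mean, the log2 ratio of Fst to Inhba was -0.34, -0.37 and -0.28 in the arrays labelled KLF2∆/∆, against 0.059, -0.072 and 0.013 in LysMCre/Cre arrays. The ratio was 1.26-fold lower (-0.33 on the log2 scale, exact permutation p = 0.1), with no overlap; this ratio was chosen after its values were seen.

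Fst, Inhba and several genes below are also made by stromal cells, whose markers were lower on the same arrays. Of 16 tested fibroblast and mesothelial markers 14 fell and 2 did not pass (Thy1 and Msln), against 16.2% of all tested genes called lower. The tested markers had a median change of -0.68. Their summed linear intensity was 13376 to 14738 in the arrays labelled KLF2∆/∆ and 23511 to 23674 in LysMCre/Cre arrays. The smallest p values belonged to the matrix gene Sparc (-0.88), the growth factor receptor gene Pdgfra (-1.21) and the urothelial and mesothelial gene Upk1b (-1.17). The markers Fap and Lum lay under the filter in the mean of all arrays and were not tested. As measured, Fap went the other way, with means of 7.55 in the arrays labelled KLF2∆/∆ and 7.27 in LysMCre/Cre arrays and no overlap. Lum averaged 5.34 in the arrays labelled KLF2∆/∆ and 5.58 in LysMCre/Cre arrays. Markers of resident peritoneal macrophages, which populate the cavity of untreated mice, were also lower: 8 of 12 tested fell, Adgre1 rose (0.24) and 3 did not pass, with a median of -0.60. Their summed linear intensity was 17467 to 18642 in the arrays labelled KLF2∆/∆ and 21727 to 22762 in LysMCre/Cre arrays. The lubricin gene Prg4 changed by -4.37 as measured, with means of 6.63, under the filter, in the arrays labelled KLF2∆/∆ and 11.00 in LysMCre/Cre arrays, the complement receptor gene Vsig4 by -1.52 and the chemokine gene Cxcl13 by -1.15. The part of stromal cells and of resident macrophages in the results for Fst, Inhba and the other members was not tested. In such bulk RNA, fewer cells of a type and less RNA per cell cannot be told apart.

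Of the receptor genes, Tgfbr1 passed and Tgfbr2, Acvr2a and Acvr1 did not. Tgfbr1 encodes ALK5, the type I receptor of TGF-beta, and read 10.33, 10.44 and 10.20 in the arrays labelled KLF2∆/∆, against 10.02, 10.09 and 9.99 in LysMCre/Cre arrays. All 3 arrays labelled KLF2∆/∆ were higher, with a gap of 0.11 that was smaller than their own SD of 0.12. Tgfbr1 rose by 0.29 ± 0.061 (SE), or 1.22-fold, with adjusted p = 0.00115.

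Its partner Tgfbr2, the type II receptor of TGF-beta, did not pass. It read 9.68, 9.75 and 9.83 in the arrays labelled KLF2∆/∆, against 9.88, 9.81 and 9.85 in LysMCre/Cre arrays. The groups overlapped, with KLF2∆/∆ replicate 3 inside the LysMCre/Cre range, and the change was -0.092 (95% interval -0.21 to 0.030, adjusted p = 0.275). Acvr2a, a type II receptor of activin, read 8.19, 8.24 and 8.08 in the arrays labelled KLF2∆/∆, against 8.17, 8.23 and 8.28 in LysMCre/Cre arrays. The values of Acvr2a were intermingled, and its change of -0.053 had a 95% interval of -0.20 to 0.094 (adjusted p = 0.644).

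Acvr1 encodes ALK2, a type I receptor that signals chiefly for bone morphogenetic proteins (BMPs) and can also bind activin. It read 9.52, 9.53 and 9.37 in the arrays labelled KLF2∆/∆, against 9.53, 9.48 and 9.53 in LysMCre/Cre arrays. Only KLF2∆/∆ replicate 3 lay outside the LysMCre/Cre range, on the low side. The change was -0.043 (95% interval -0.17 to 0.086, adjusted p = 0.672) and had the other sign without that array (0.0089, adjusted p = 0.938).

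The Smad genes of the list fell together. Smad3, which carries the signal of activin and TGF-beta receptors to the nucleus, read 9.09, 9.22 and 9.24 in the arrays labelled KLF2∆/∆, against 9.49, 9.59 and 9.59 in LysMCre/Cre arrays. Smad7, which competes for the type I receptors and marks them for degradation, read 8.48, 8.54 and 8.55 in the arrays labelled KLF2∆/∆, against 8.81, 8.82 and 8.80 in LysMCre/Cre arrays. Each gap, 0.25 for both genes, was wider than the SD of any group, and none of the arrays crossed over. Smad3 changed by -0.37 ± 0.063 (SE), 1.29-fold lower, with adjusted p = 0.000107. Smad7 changed by -0.29 ± 0.063 (SE), 1.22-fold lower, with adjusted p = 0.00129. The 95% intervals of the transducer and its inhibitor overlapped (-0.50 to -0.24 for Smad3 and -0.42 to -0.16 for Smad7), and a difference between their changes was not tested.

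Tgfbi encodes a secreted matrix protein named for its induction by TGF-beta, and macrophages make it too. Its values were 10.17, 10.31 and 10.19 in the arrays labelled KLF2∆/∆, against 9.48, 9.49 and 9.42 in LysMCre/Cre arrays. It was the gene of the list with the clearest rise, with a gap of 0.67 between the groups. The change was 0.76 ± 0.058 (SE), 1.69-fold higher, with adjusted p = 3.65e-09, and 33 of the tested genes rose by more. Among the other genes listed below as TGF-beta-induced, Id2 and Klf10 were also called higher, while 9 fell.

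**Figure D2:**
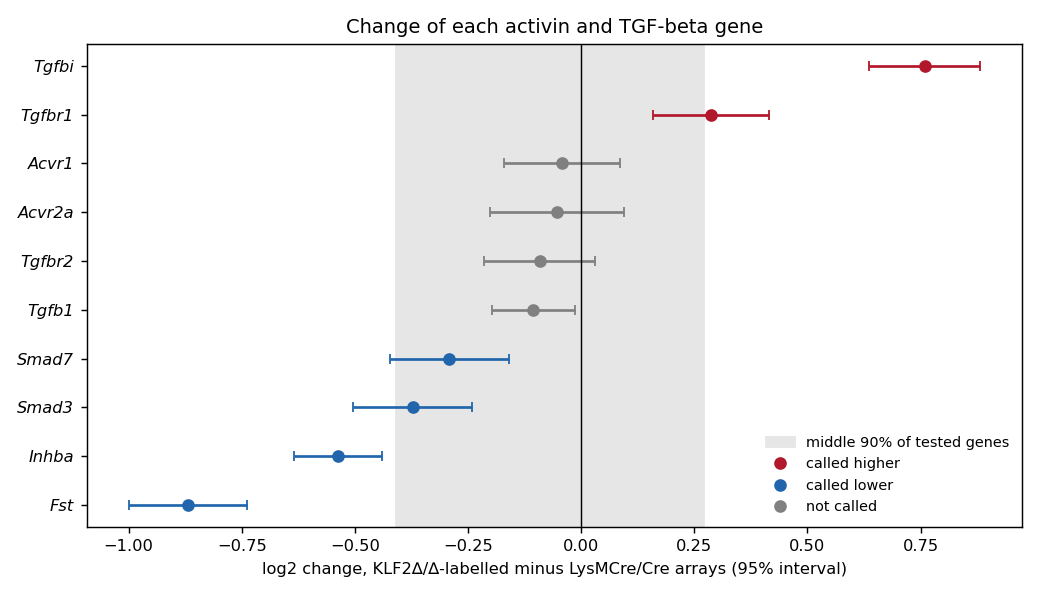
Change of each of the 10 genes on the log2 scale (horizontal axis, points, with limma's 95% interval as bars), coloured by call, with the middle 90% of the changes of all tested genes shaded (-0.41 to 0.27). Fst and Inhba lie below and Tgfbi above the shaded band with their whole interval, while Tgfbr1 sits at its upper edge.

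The windows of 250 bases before the RefSeq start (assembly GRCm38.p6) were read for the 8 genes that had one in the promoter table used. Fst and Smad7 had no window there, and Tgfbr1 had a pair of starts, which gave 9 windows. Those of Inhba and Tgfbi, genes of chromosome 13 that moved in opposite directions, are printed here to show how they differ, in lower case with motif matches in capitals. The window of Inhba, on the plus strand at chr13:16011601-16011850, lies inside the span of the gene's RefSeq record, before the start of the transcript used. The window of Tgfbi, also on the plus strand, is chr13:56609336-56609585.
Inhba: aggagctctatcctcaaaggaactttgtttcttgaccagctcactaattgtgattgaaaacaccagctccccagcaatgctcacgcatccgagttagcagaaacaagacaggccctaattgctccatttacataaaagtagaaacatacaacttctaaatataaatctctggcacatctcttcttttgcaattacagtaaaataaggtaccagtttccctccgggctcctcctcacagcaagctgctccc
Tgfbi: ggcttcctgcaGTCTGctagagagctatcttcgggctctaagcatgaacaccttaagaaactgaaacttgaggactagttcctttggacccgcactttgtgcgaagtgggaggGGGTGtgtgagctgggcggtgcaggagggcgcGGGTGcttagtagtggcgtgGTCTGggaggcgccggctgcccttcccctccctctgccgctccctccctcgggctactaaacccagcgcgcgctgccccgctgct
The motifs searched on both strands were CACCC (the box bound by Krüppel-like factors), CAGAC (a Smad-binding element), TGANTCA (an AP-1 site) and TGACGTCA (a cAMP response element), and no matches overlap in the windows printed. Tgfbi held 2 CACCC matches, which begin 137 and 105 bases before the start, and 2 CAGAC matches, which begin 239 and 85 bases before it, all on the opposite strand (GGGTG and GTCTG). The Inhba window held no match to any of the 4. CACCC was found in 6 of the 9 windows, against 52.0% of 32817 windows of the same length. CAGAC was found in 4 of the 9, against 42.2%. No window held TGANTCA or TGACGTCA, which 6.75% and 1.55% of all windows hold. These matches describe the letters only.

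The rest of the pathway was read from 82 further genes, of which 64 were tested, 14 lay under the filter and 4 were not analysed here. Over all tested genes 16.2% were called lower and 13.6% higher, the shares to set beside this count and those of the groups below. Of the 64, 27 fell, 9 rose and 28 did not pass, with a median change of -0.12, against 0.0019 over all tested genes. Their median lay below 0 in each of the 5 groups of genes. Of these genes Dcn and Col1a1 are also fibroblast markers and Ltbp1 is also a marker of resident peritoneal macrophages. Pmepa1, Ltbp2 and Skil belong to more than a single group. The group counts below hold them repeatedly, while the count of 64 holds each once.

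Among other ligands of the family and their processing enzyme, 6 of 11 fell, 1 rose and 4 did not pass. Bmp1, which despite its name is a protease that trims procollagens and releases TGF-beta family ligands, changed by -0.82 (adjusted p = 4.81e-10). The ligand gene Tgfb2 changed by -0.70, Bmp4 by -0.51 and Bmp2 by -0.41, the last with overlapping groups. Tgfb2 and Bmp4 averaged 7.66 and 7.55 in the arrays labelled KLF2∆/∆, close to the filter level. Gdf3 was the ligand gene that rose, with 8.88, 8.90 and 8.84 in the arrays labelled KLF2∆/∆, against 8.34, 8.35 and 8.23 in LysMCre/Cre arrays (0.57 ± 0.066 SE, adjusted p = 1.20e-06). The other activin and inhibin chain genes, Inha, Inhbb, Inhbc and Inhbe, lay under the filter in the mean of all arrays and were not tested.

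Genes that trap, store or release ligands were lower in 9 of 18 cases, higher in 2 and not called in 7. The small proteoglycans Dcn and Bgn, which bind TGF-beta in the matrix, changed by -0.68 and -0.59. Fstl1, a follistatin-like glycoprotein, changed by -0.57 and the latent TGF-beta binding protein gene Ltbp1 by -0.60. Nrros, which tethers latent TGF-beta on myeloid cells, rose by 0.52 ± 0.054 (SE, adjusted p = 3.43e-07), with 10.19, 10.21 and 10.28 in the arrays labelled KLF2∆/∆ against 9.68, 9.72 and 9.72 in LysMCre/Cre arrays. The trap that is most like follistatin, Fstl3, did not pass (0.031, adjusted p = 0.815) and was named after its values were seen.

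Of 8 other receptors and co-receptors tested, 2 fell, 2 rose and 4 did not pass. Bmpr1a, a type I receptor of BMPs, was 2.04-fold lower, with 7.50, 7.67 and 7.52 in the arrays labelled KLF2∆/∆ against 8.59, 8.55 and 8.63 in LysMCre/Cre arrays (-1.03 ± 0.072 SE, adjusted p = 9.98e-10), which put the arrays labelled KLF2∆/∆ close to the filter level. The co-receptor gene Tgfbr3, which presents TGF-beta to its receptors, changed by -0.77. Acvrl1, a type I receptor best known from endothelium, rose by 0.31 (adjusted p = 0.000376). Its co-receptor gene Eng rose by 0.16 (adjusted p = 0.00816), a call lost without LysMCre/Cre replicate 3 (0.15, adjusted p = 0.0508).

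Of 16 other Smads and their regulators, 3 fell, 2 rose and 11 did not pass. These calls were close to the shares over all tested genes, 16.2% lower and 13.6% higher. Pmepa1, a TGF-beta-induced protein that holds back Smad2 and Smad3, changed by -0.44 (adjusted p = 4.43e-07), the clearest change of this group. The BMP-activated Smad5 changed by -0.28 and the Smad repressor gene Tgif1 by 0.19. The ubiquitin ligase gene Smurf1 changed by -0.18 and lost its call without KLF2∆/∆ replicate 1 and without LysMCre/Cre replicates 1 and 2 (adjusted p = 0.0626, 0.125 and 0.0654). Smad1 changed by 0.19 and lost its call without KLF2∆/∆ replicate 2 and without any LysMCre/Cre replicate (adjusted p = 0.0609, 0.0784, 0.0980 and 0.0859). With all arrays, Smurf1 and Smad1 had adjusted p = 0.0199 and 0.0288, so neither was called at a threshold of 0.01. Smad2 and Smad4, the partners of Smad3, did not pass, with changes of -0.044 and 0.071 (adjusted p = 0.677 and 0.266); they were named after their values were seen.

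Of 14 tested genes listed here as induced by TGF-beta, 9 fell, 2 rose and 3 did not pass, with a median of -0.35. Their response to TGF-beta in these cells was not tested. The genes that rose were Id2, an inhibitor of helix-loop-helix transcription factors (0.31, adjusted p = 0.000147), and the Krüppel-like factor gene Klf10 (0.28, adjusted p = 0.00537), both named after their values were seen. The matrix gene Fn1 changed by -0.63, the matricellular gene Ccn2 by -0.82, the transcriptional regulator gene Tsc22d1 by -0.83 and the collagen gene Col1a1 by -0.68, beside Pmepa1 above. Fn1 read 13.15, 13.23 and 13.15 in the arrays labelled KLF2∆/∆, against 13.80, 13.82 and 13.81 in LysMCre/Cre arrays. Several of these genes are strongly expressed in fibroblasts, whose markers had the lower sum given above, and the part of those cells in this list was not tested.

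**Figure D3:**
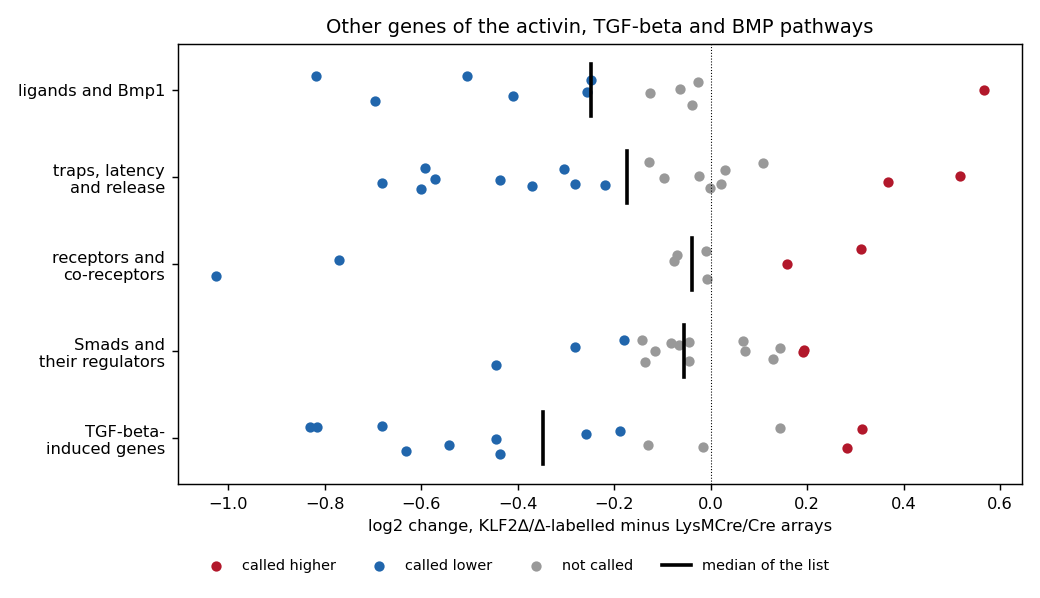
Change on the log2 scale (horizontal axis) of each tested gene of the 5 further gene groups (points, spread vertically for visibility and coloured by call), with the median of each group as a bar. The medians run from -0.35 for TGF-beta-induced genes to -0.039 for receptors and co-receptors, and Bmpr1a at -1.03 is the lowest point.

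Other cell types were read through their markers, beside 13.6% of all tested genes called higher and 16.2% lower. General macrophage markers rose in 7 of 13 cases, fell in 2 and did not pass in 4, with a median of 0.15. Those with the smallest p were Fcgr1 (0.47), C1qb (0.23) and Spi1 (0.23), which rose. Cd14 (-0.26) and Itgam (-0.21) fell and were named after their values were seen. The summed linear intensity of the 13 markers was 73363 to 74322 in the arrays labelled KLF2∆/∆ and 67687 to 68458 in LysMCre/Cre arrays. Of 10 neutrophil markers 5 were tested, of which 3 rose (Mmp8 by 0.74, Csf3r by 0.38 and S100a9 by 0.26) and 2 did not pass. The other 5 lay under the filter, among them Ly6g (5.62 in the arrays labelled KLF2∆/∆ and 5.75 in LysMCre/Cre arrays) and S100a8 (6.59 in the arrays labelled KLF2∆/∆ and 6.60 in LysMCre/Cre arrays), named after their values were seen. Of 8 mast cell markers 4 were tested and fell, with Cpa3, Tpsb2 and Hdc leading by p. Mmp8, S100a9 and Cpa3 had 1 group mean under the filter, so their changes are as measured. Of 6 tested dendritic cell markers, Fscn1 (-0.79) and Ccr7 (-0.23) fell and 4 did not pass. The 3 tested B cell markers and 2 tested T and NK cell markers did not pass (adjusted p from 0.790 to 0.938). The B cell markers Ms4a1 and Ebf1 lay under the filter in the mean of all arrays and were not tested. As measured, Ms4a1 averaged 7.65 in the arrays labelled KLF2∆/∆ and 7.25 in LysMCre/Cre arrays, with no overlap. Ebf1 averaged 6.85 in the arrays labelled KLF2∆/∆ and 6.885 in LysMCre/Cre arrays, with overlap. Both were named after their values were seen.

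The genes whose pattern over the 6 arrays was most like that of Inhba were the cationic amino acid transporter gene Slc7a2 (Pearson's r = 0.999), the cytokine gene Il6 (0.997) and Kdelr1, a receptor that returns proteins to the endoplasmic reticulum (0.997). Slc7a2 read 13.05, 13.11 and 13.01 in the arrays labelled KLF2∆/∆, against 13.38, 13.46 and 13.51 in LysMCre/Cre arrays. The arrays fall into the 2 groups, so genes with a clear change of the same sign tend to follow Inhba. Of 12648 other genes, 694 had r above 0.95.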

How the data were processed

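Per the submitters' processing notes, the authors made the deposited log2 intensities with Affymetrix Expression Console and RMA (background correction, quantile normalization and probe summary); the sources used here give no version, filter, summary level or genome build. The authors also deposited these values as linear intensity, called untransformed signal per the file headers, which differed by at most 5.0e-05 on the log2 scale over the probe sets used. RMA makes arrays alike in distribution, so a change common to most genes would not show, and the number of arrays limits precision. Scan dates are not given, so batches of arrays were not tested.

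The 6613 of 35557 probe sets with the lowest identifiers, absent from the annotation table, were treated as controls and left out. Each gene was read from its brightest probe set naming 1 gene (21789 probe sets; 21698 matched RefSeq identifiers of GRCm38.p6, used for names). Genes under the 40th percentile of mean intensity (log2 7.49) were left out, which left 12649. The comparison used limma 3.58.1 (R 4.3.3, intensity trend, no replicate block, two-sided). The procedure was also tested on simulated data, in which fewer genes changed than were called here. The submitters' design text speaks of pairs, but nothing ties a replicate number to a pair. Deviations from the group means correlated by -0.091, 0.12 and -0.049 between arrays of equal number. With so few arrays this cannot show whether they were paired. The numbers were not taken as pairs in the main comparison, and a replicate block was fitted as an alternative.

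The members and lists were chosen with earlier results of these data known. Named are all 10 genes, Klf2, up to 5 genes of each pathway list and up to 3 of each marker list by smallest p, and the 3 genes most like Inhba. Figures were drawn with matplotlib 3.10.9.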

Additional observations from a re-analysis of the deposited data

How the results depend on the processing

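The calls of Inhba, Fst, Smad3, Smad7, Tgfbi and Tgfbr1 kept their direction and passed under all 16 alternatives. These were a replicate block, quantile normalization applied again, centring on medians, no intensity trend, robust variances, array weights, no filter, a filter at the 60th percentile, the mean of a gene's probe sets, a threshold of 0.01 and leaving out each array in turn. Their changes ranged from -0.57 to -0.50 for Inhba, -0.91 to -0.82 for Fst, -0.40 to -0.33 for Smad3, -0.31 to -0.25 for Smad7, 0.71 to 0.79 for Tgfbi and 0.23 to 0.35 for Tgfbr1. Leaving out single arrays gave 2 members higher and 4 to 5 lower, the fifth being Tgfb1, and 7 to 11 higher and 23 to 29 lower pathway genes. Over all genes such fits called 1306 to 1851 higher and 1607 to 2288 lower, against 1723 and 2043 with all arrays. With the replicate block, whose numbers are not known to mark pairs, 2 members were higher and 4 lower, with 1747 higher and 2077 lower over all genes. Quantile normalization turned the balance of calls, with 2120 higher and 1961 lower, and so did the stricter filter (1690 higher and 1649 lower). Acvr1 ran from -0.069 to 0.0089 over fits without single arrays and changed sign without KLF2∆/∆ replicate 3 (0.0089), and the Cre-carrying gene Lyz2, at 0.0050 with all arrays (adjusted p = 0.964), changed sign without KLF2∆/∆ replicate 1 (-0.027), KLF2∆/∆ replicate 3 (-0.0013) and LysMCre/Cre replicate 1 (-0.033), in a range of -0.033 to 0.044. The cause was not tested. Of 40 named list genes, 35 kept their call and direction wherever they were tested. The others were Eng, Smurf1 and Smad1, the mast cell gene Hdc (adjusted p = 0.0506 without LysMCre/Cre replicate 1) and S100a9, which lost its call without LysMCre/Cre replicates 1 and 2 (0.131 and 0.103), among others. Acvr2a lay below the stricter filter and could not be tested there. Fits that left out an array assumed that the smaller group varies like the larger.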
